A study of Rattus norvegicus and Mus musculus with 12 samples.

Results

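The genes of the amino acid stress response and of serine synthesis were followed in articular chondrocytes of rat and mouse with and without IL-1β, an inflammatory cytokine. The 10 genes, Asns, Chac1, Trib3, Sesn2, Phgdh, Psat1, Shmt2, Mthfd2, Slc7a11 and Slc3a2, were chosen by name, 1 row each of 19687 genes in the rat table and of 28603 genes in the mouse table. All 10 passed the filter on low counts in both species. The study asked whether chondrocytes of the 2 species respond alike to IL-1β. The cells were primary passage 1 chondrocytes from the articular cartilage of newborn Sprague–Dawley (SD) rats and of mice. The RC (rat control) and MC (mouse control) groups received no IL-1β, and the RM (rat model) and MM (mouse model) groups received 20 ng/ml for 24 h. Each group had 3 libraries, described as independent samples, and the sources used here do not say how many animals gave each sample. The strain labels of the mouse libraries run on from C57BL/6 by 1 with each library, while the study's methods name C57BL/6 for all mice.

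Cells short of an amino acid, or under stress in the endoplasmic reticulum (ER), phosphorylate the translation factor eIF2α. General protein synthesis then slows while the transcription factor ATF4 is made, which switches on genes for amino acid synthesis, amino acid uptake and tRNA charging. This is the integrated stress response (ISR). Asns, Chac1, Trib3 and Sesn2 are well-known ATF4 targets, and so are the serine synthesis enzymes Phgdh and Psat1, the mitochondrial folate enzymes Shmt2 and Mthfd2, and both chains of the cystine transporter, Slc7a11 and Slc3a2. Slc7a11 is also a target of NRF2, the transcription factor of the antioxidant response. Chondrocytes secrete a protein-rich matrix and so need a steady supply of amino acids, glycine and proline among them.

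ATF4 binds a composite C/EBP-ATF element, whose core TGATGNAA (TTNCATCA when read on the other strand) was searched on both strands in rat promoters from RefSeq (build GRCr8, 250 bases before to 50 bases after each gene start). All 10 genes had a promoter in the table and Slc3a2 had 2, giving 11 promoters. Those of Chac1 and Trib3 held the core, both on the opposite strand. Among all 33469 promoters of this length, 1332 (3.98%) held it. The promoters of Chac1 and Trib3 are shown because these genes had the lowest log2 fold changes of the 10 in the rat, and the core is in capitals. It starts 167 bases before the start of Chac1 (chr3:126795881-126796180, plus strand) and 21 bases before that of Trib3 (chr3:161275484-161275783, minus strand). A match is a description of the sequence, and binding was not measured.
Chac1 promoter: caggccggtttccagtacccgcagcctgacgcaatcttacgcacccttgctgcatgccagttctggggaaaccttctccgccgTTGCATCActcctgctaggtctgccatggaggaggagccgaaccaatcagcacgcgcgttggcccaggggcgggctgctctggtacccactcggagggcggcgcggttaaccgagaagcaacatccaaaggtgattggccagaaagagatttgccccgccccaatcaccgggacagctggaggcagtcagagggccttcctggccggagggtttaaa
Trib3 promoter: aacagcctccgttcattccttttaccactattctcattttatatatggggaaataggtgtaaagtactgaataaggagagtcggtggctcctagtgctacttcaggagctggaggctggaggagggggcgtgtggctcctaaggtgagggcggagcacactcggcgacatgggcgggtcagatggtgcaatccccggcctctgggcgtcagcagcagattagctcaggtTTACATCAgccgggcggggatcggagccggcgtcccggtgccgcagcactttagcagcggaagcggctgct

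The rat libraries held 20169272 to 25903459 counted reads and the mouse libraries 16841580 to 20048322. FPKM values, which are counts scaled by gene length and by the library's total count, are given as deposited. Fold changes come from the counts with edgeR's TMM scaling, an adjustment for libraries in which some very abundant genes crowd the rest. TMM hardly moved the rat values, but in the mouse the factors were 1.099 to 1.104 in MC and 0.9052 to 0.9107 in MM. Over all mouse genes the median log2 fold change was -0.02 after TMM but -0.29 by library size alone, so a ratio of the deposited FPKM in the mouse is lower than the fitted fold change by about this shift. With library size alone, 3699 mouse genes were higher and 8074 lower in MM, against 5521 and 5564 with TMM. All 8 chondrocyte markers had a mean of at least 1 FPKM in both species, and their summed level was 4861 to 5523 FPKM in RC, 1924 to 1961 in RM, 2197 to 2242 in MC and 197.6 to 209.9 in MM. Of the macrophage and leukocyte markers, Cd68 was above 1 FPKM and Ptprc, Csf1r and Adgre1 were below it in both species. The sum of that list was 4.51 to 5.13 FPKM in RC, 7.04 to 9.52 in RM, 3.83 to 4.47 in MC and 8.54 to 10.02 in MM. All endothelial markers were below 1 FPKM. Summed fibroblast markers were at 1628 to 1786 FPKM in RC, 1157 to 1204 in RM, 377.7 to 387.6 in MC and 345.6 to 348.3 in MM. Muscle markers summed to 3.19 to 4.18 FPKM in RC, 2.67 to 3.07 in RM, 3.81 to 4.35 in MC and 0.390 to 0.816 in MM, and osteoblast markers to 1.35 to 1.76, 0.784 to 1.36, 12.06 to 12.55 and 0.351 to 0.662. The part of these shifts in the results was not tested, and in bulk samples fewer cells of a type and less RNA per cell cannot be told apart.

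In rat chondrocytes, 9 of the 10 genes were lower after IL-1β and none was higher, at an adjusted P under 0.05 by edgeR's quasi-likelihood test with Benjamini-Hochberg adjustment over all 13303 genes tested. Among all rat genes, 16.8% were lower and 18.3% were higher by this rule. The median log2 fold change of the 10 genes was -0.66, against 0.01 for all genes. The falls were unequal, from -0.44 for Slc3a2 to -1.83 for Trib3 on the log2 scale. Shmt2 was the gene not called. At an unadjusted P under 0.05, Shmt2 made 1 gene higher, as it did by DESeq2 at an adjusted P under 0.05. The study's methods ask for an FPKM of 1 or more, a P under 0.05 and a fold change over 0.85, and the fold was read here as a log2 value in either direction, which the methods do not state. By the study's criteria so read, with an unadjusted P, Chac1 and Trib3 were lower, where 3.9% of all genes were, and none was higher, where 4.64% were. Sesn2 lay just short of this fold criterion, at -0.848.

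Mouse chondrocytes had 5 of the 10 genes higher after IL-1β (Slc7a11, Sesn2, Slc3a2, Shmt2 and Chac1) and 4 lower (Phgdh, Psat1, Asns and Mthfd2), with Trib3 not called. When TMM was left out, the split was 4 higher and 5 lower. Chac1 was then not called (0.04) and Trib3 was called lower (-0.26). Both limma fits gave the same split. The background was far wider than in the rat: of 14774 genes tested, 37.4% were higher and 37.7% were lower, so 9 calls among 10 genes is near the share of all genes. After TMM, the median log2 fold change of the 10 was 0.17, against -0.02 for all genes. The median of all genes was -0.29 without TMM. Under the study's criteria, Slc7a11 was higher, where 12.6% of all genes were, and Phgdh was lower, where 13% were. The spread between mouse libraries was also smaller, with a biological coefficient of variation of 0.0318 against 0.106 in the rat.

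**Figure D1:**
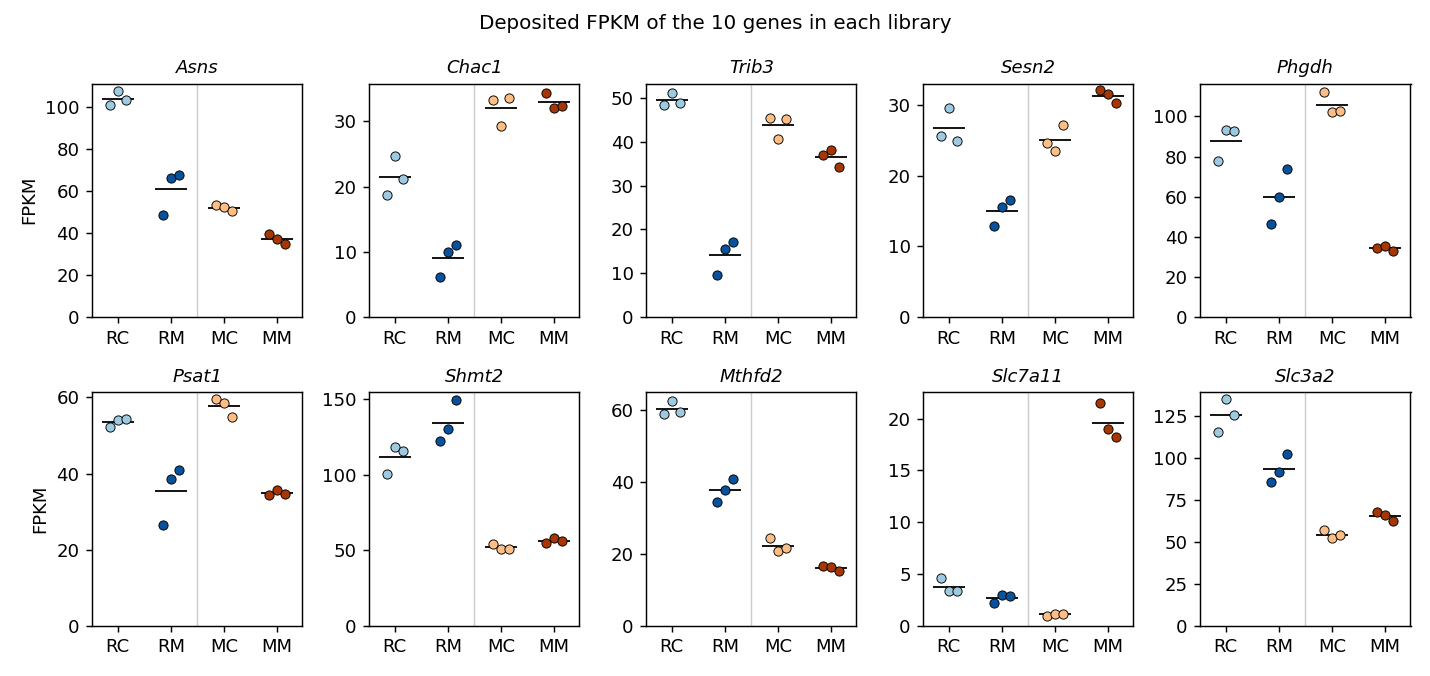
Deposited FPKM (y axis, from 0) of each of the 10 genes in the 3 libraries of each group (points), with the group mean as a line; RC and RM are rat, MC and MM are mouse. Trib3 drops from 49.6 to 14.1 FPKM on average in the rat, and Slc7a11 climbs from 1.09 to 19.6 in the mouse.

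The rat change was subtracted from the mouse change in 1 fit of 12 libraries over 10912 genes shared by symbol, and this difference passed the test for 8 of the 10 genes. For 7 the change was more positive in the mouse, where 31.4% of all genes were, and for Phgdh it was more positive in the rat, where 32.3% were. Psat1 and Shmt2 did not pass. Over all genes, 3429 and 3530 passed in these 2 directions, or 2191 and 5395 with library size alone, by which 6 of the 10 genes passed.

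**Figure D2:**
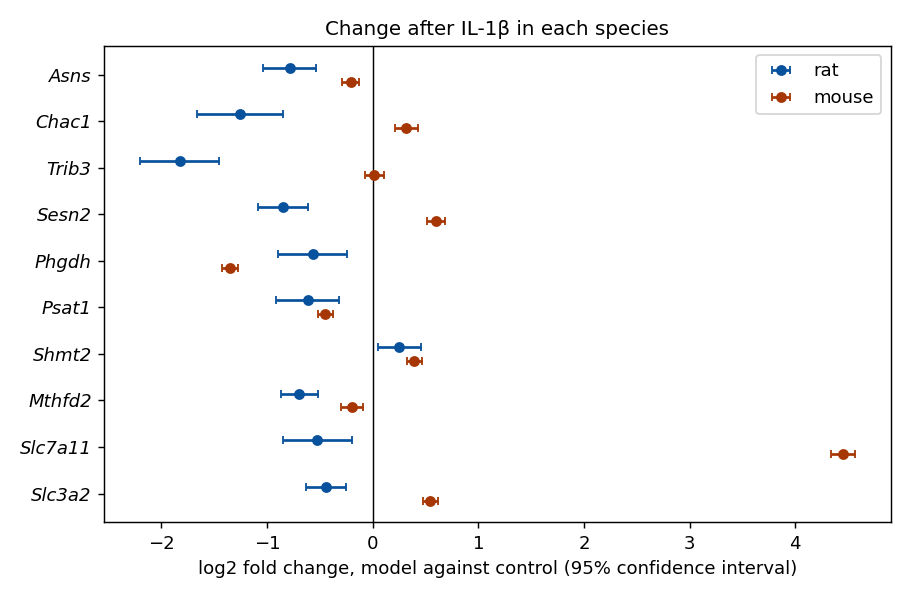
Log2 fold change of the model group against control (x axis) for each gene in rat (blue) and mouse (orange), with 95% confidence intervals of the edgeR fit. Phgdh, Psat1, Mthfd2 and Asns lie below 0 in both species, Shmt2 lies above 0 in both, and Slc7a11 in the mouse stands at 4.45.

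Asns makes asparagine from aspartate with glutamine as the nitrogen donor (ENSRNOG00000007546; ENSMUSG00000029752, mouse chr6:7675169-7693254, minus strand, build GRCm38). It stood at 101.1, 107.6 and 103.6 FPKM in the RC libraries and at 48.8, 66.4 and 67.9 in the RM libraries. Every RM library was below every RC library, and replicate 1 of RM was the lowest. The rat log2 fold change was -0.79 ± 0.11 (SE, n = 3 per group; adjusted P = 0.000396), a level 1.72-fold lower. In the mouse, Asns stood at 53.6, 52.2 and 50.4 FPKM in MC and at 39.4, 37.0 and 34.9 in MM. The groups were apart, and the fitted change was smaller than in the rat, -0.21 ± 0.04 (SE, n = 3 per group; adjusted P = 7.53e-06). The mouse change lay above the rat change by 0.58 (95% interval 0.30 to 0.85, adjusted P = 0.000959), but by 0.28 (adjusted P = 0.0615) with library size alone.

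Chac1 is a γ-glutamyl cyclotransferase that breaks down glutathione (ENSRNOG00000014387; ENSMUSG00000027313, mouse chr2:119351229-119354381, plus strand). In RC it stood at 18.7, 24.6 and 21.1 FPKM and in RM at 6.13, 9.99 and 10.96. No rat libraries of the 2 groups overlapped. The log2 fold change was -1.26 ± 0.18 (SE, n = 3 per group; adjusted P = 0.000423), or 2.39-fold lower. Mouse Chac1 stood at 33.3, 29.3 and 33.5 FPKM in MC and at 34.4, 32.1 and 32.4 in MM, so that the deposited FPKM overlapped. After TMM scaling they did not, with 30.3, 26.6 and 30.4 in MC and 38.0, 35.3 and 35.6 in MM. The fitted mouse change was 0.32 ± 0.05 (SE, n = 3 per group; adjusted P = 2.96e-07). Library size alone gave 0.04 (adjusted P = 0.48), and the call was lost. Between the species the difference was 1.58 (95% interval 1.15 to 2.00, adjusted P = 2.79e-06).

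Trib3 encodes a pseudokinase that is induced by ATF4 and CHOP and restrains the ATF4 response (ENSRNOG00000007319; ENSMUSG00000032715, mouse chr2:152337422-152344032, minus strand). Its level in RC was 48.5, 51.2 and 49.0 FPKM, and in RM 9.56, 15.4 and 17.2. This was the lowest log2 fold change of the 10 genes in the rat, -1.83 ± 0.17 (SE, n = 3 per group; adjusted P = 1.96e-05), or 3.55-fold lower. Only 1.18% of all rat genes tested had a lower value. Mouse libraries stood at 45.4, 40.6 and 45.3 FPKM in MC and at 37.0, 38.2 and 34.2 in MM. After TMM scaling the mouse groups overlapped, with 41.3, 36.8 and 41.1 in MC and 40.8, 42.1 and 37.5 in MM. The fitted mouse change was 0.02 (95% interval -0.08 to 0.11, adjusted P = 0.761), and with library size alone it was -0.26 (adjusted P = 4.47e-07), so its direction rests on the scaling. The difference between the species was 1.84 (95% interval 1.45 to 2.23, adjusted P = 1.73e-07), and 1.54 with library size alone.

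Sesn2 binds leucine and holds back mTORC1, the kinase complex that drives protein synthesis (ENSRNOG00000042785; ENSMUSG00000028893, mouse chr4:132492032-132510501, minus strand). Rat libraries stood at 25.6, 29.6 and 24.9 FPKM in RC and at 12.8, 15.6 and 16.6 in RM. The log2 fold change was -0.85 ± 0.11 (SE, n = 3 per group; adjusted P = 0.000168), or 1.80-fold lower. Mouse Sesn2 went the other way, with 24.6, 23.6 and 27.1 FPKM in MC and 32.1, 31.5 and 30.3 in MM. All MM libraries were above all MC libraries, by both the deposited and the TMM-scaled FPKM. The mouse change was 0.60 ± 0.04 (SE, n = 3 per group; adjusted P = 1.72e-19), and the difference between the species was 1.44 (95% interval 1.18 to 1.71, adjusted P = 2.41e-08). With library size alone the mouse change was smaller, 0.32 (adjusted P = 9.29e-10).

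Phgdh catalyses the first step of serine synthesis from the glycolytic intermediate 3-phosphoglycerate (ENSRNOG00000019328; ENSMUSG00000053398, mouse chr3:98313170-98339990, minus strand). It stood at 112.4, 102.4 and 102.6 FPKM in MC and at 34.2, 35.4 and 33.0 in MM. In the mouse this was the lowest log2 fold change of the 10 genes, -1.35 ± 0.04 (SE, n = 3 per group; adjusted P = 4.50e-40), or 2.55-fold lower. Rat libraries stood at 77.5, 93.4 and 92.7 FPKM in RC and were spread out in RM, at 46.1, 59.8 and 74.0. The groups were apart by a small gap, and the change was -0.57 ± 0.15 (SE, n = 3 per group; adjusted P = 0.0131). Without replicate 3 of RC the rat call was lost (-0.53, adjusted P = 0.058). Phgdh was the gene whose change was more negative in the mouse, by -0.79 (95% interval -1.14 to -0.44, adjusted P = 0.000536).

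Psat1 carries out the next step, a transamination that uses glutamate (ENSRNOG00000013971; ENSMUSG00000024640, mouse chr19:15904678-15947337, minus strand). Rat libraries stood at 52.2, 54.2 and 54.3 FPKM in RC and at 26.5, 38.5 and 40.8 in RM. Mouse libraries stood at 59.7, 58.5 and 54.8 in MC and at 34.3, 35.6 and 34.6 in MM. Both model groups lay below their controls without overlap. The log2 fold change was -0.62 ± 0.13 in the rat (adjusted P = 0.00525) and -0.45 ± 0.04 in the mouse (adjusted P = 5.06e-18; SE, n = 3 per group). The change did not differ detectably between the species, with a difference of 0.17 (95% interval -0.15 to 0.48, adjusted P = 0.338).

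Shmt2 converts serine to glycine in mitochondria and passes a carbon unit to folate (ENSRNOG00000008106; ENSMUSG00000025403, mouse chr10:127517123-127522444, minus strand). It stood at 100.6, 118.1 and 115.5 FPKM in RC and at 122.3, 130.3 and 149.5 in RM. These groups did not overlap, but the change of 0.25 ± 0.09 (SE, n = 3 per group; adjusted P = 0.0545) missed the threshold. It was past the threshold with library size alone (adjusted P = 0.0441) and with DESeq2 (0.0389), among other settings. Mouse Shmt2 stood at 54.0, 51.0 and 50.9 FPKM in MC and at 55.0, 58.2 and 55.8 in MM, a change of 0.40 ± 0.04 (SE, n = 3 per group; adjusted P = 1.89e-15). With library size alone the mouse change was smaller, 0.12 (adjusted P = 0.00264). The difference between the species was 0.14 (95% interval -0.07 to 0.36, adjusted P = 0.230). In the mouse annotation, 32 bases of its exons (1.03%) overlap Ndufa4l2 on the opposite strand, the one exon overlap among the 10 genes.

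Mthfd2 oxidises the folate-bound carbon unit in mitochondria (ENSRNOG00000010833; ENSMUSG00000005667, mouse chr6:83305691-83325908, minus strand). Rat libraries stood at 58.9, 62.6 and 59.5 FPKM in RC and at 34.4, 37.7 and 41.0 in RM. The change was -0.69 ± 0.08 (SE, n = 3 per group; adjusted P = 9.29e-05), or 1.62-fold lower. Mouse libraries stood at 24.5, 20.7 and 21.8 FPKM in MC and at 16.5, 16.4 and 15.3 in MM, a change of -0.19 ± 0.05 (SE, n = 3 per group; adjusted P = 0.000555). Both groups were apart in each species. Thus Shmt2 and Mthfd2, which act on the same carbon unit, were on opposite sides of 0 in both species, with Shmt2 in the rat short of the threshold. The mouse change of Mthfd2 lay above that of the rat by 0.50 (95% interval 0.28 to 0.72, adjusted P = 0.000524), and by 0.20 (adjusted P = 0.0905) with library size alone.

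Slc7a11, or xCT, is the light chain of the exchanger that takes up cystine and releases glutamate (ENSRNOG00000010210; ENSMUSG00000027737, mouse chr3:49892526-50443614, minus strand). In the mouse it stood at 0.961, 1.17 and 1.13 FPKM in MC and at 21.5, 19.0 and 18.2 in MM. The change was 4.45 ± 0.06 (SE, n = 3 per group; adjusted P = 6.35e-60), or 21.9-fold higher, and 98.5% of all mouse genes tested had a lower value. Rat Slc7a11 stood at 4.58, 3.39 and 3.36 FPKM in RC and at 2.17, 2.96 and 2.84 in RM. Replicate 1 of RC was the highest and replicate 1 of RM the lowest, and the groups did not overlap. The rat change was -0.52 ± 0.15 (SE, n = 3 per group; adjusted P = 0.0188), which did not pass without replicate 1 of RM (-0.40, adjusted P = 0.0785) or with limma on log2(FPKM + 1) (-0.38, adjusted P = 0.0559). The difference between the species, 4.97 (95% interval 4.58 to 5.36, adjusted P = 4.51e-13), was larger than that of the other 9 genes.

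Slc3a2, or CD98hc, is the heavy chain that carries Slc7a11 and several other amino acid transporters to the cell surface (ENSRNOG00000018487; ENSMUSG00000010095, mouse chr19:8706882-8723369, minus strand). Rat libraries stood at 115, 135 and 125 FPKM in RC and at 85.5, 91.5 and 102 in RM. The change was -0.44 ± 0.09 (SE, n = 3 per group; adjusted P = 0.00255). Mouse libraries stood at 56.7, 52.1 and 53.7 FPKM in MC and at 67.5, 65.9 and 62.1 in MM. All MM libraries were above all MC libraries, with a change of 0.55 ± 0.04 (SE, n = 3 per group; adjusted P = 9.00e-22). With library size alone the mouse change was smaller, 0.27 (adjusted P = 2.65e-10). The difference between the species was 0.99 (95% interval 0.78 to 1.20, adjusted P = 1.41e-07). With 3 libraries a group, the exact permutation test of 1 gene has a smallest two-sided P of 0.1, so the calls rest on the fit across all genes.

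Replicate 1 of RM stood below the mean of the other RM libraries in 10 of 10 genes, by a median of -0.44 on the log2 scale (from -0.77 to -0.18). Over all rat genes the median of this deviation was -0.01, with an SD of 0.30. For Trib3, this library was 2.39 below the RC mean on the log2 scale. Of the pathway lists described further on, this library was also below the mean of the other RM libraries for 13 of 16 ISR regulators, 16 of 20 tRNA synthetases, 16 of 24 amino acid transporters, 15 of 17 ER genes of the unfolded protein response and 12 of 12 DNA replication genes. It was above that mean for 14 of 21 other serine, glycine and one-carbon enzymes, 9 of 13 transsulfuration and glutathione genes and 7 of 9 NRF2 target genes. For other amino acid synthesis (8 below, 8 above) and genes of amino acid sensing (11 below, 10 above) it was on both sides. Without it, 8 of the 10 genes were still lower, with changes from -0.39 for Slc3a2 to -1.62 for Trib3, where 1581 of 13500 rat genes tested were lower. The species difference passed for 8 of the 10 without it. Of 10976 genes tested, 3321 then passed with a change more positive in the mouse and 3398 with one more positive in the rat. In the mouse, replicate 3 of MM was below the mean of the other MM libraries in 10 of 10 genes, by a smaller median of -0.10. Over all mouse genes the median of this deviation was 8e-04, with an SD of 0.29.

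**Figure D3:**
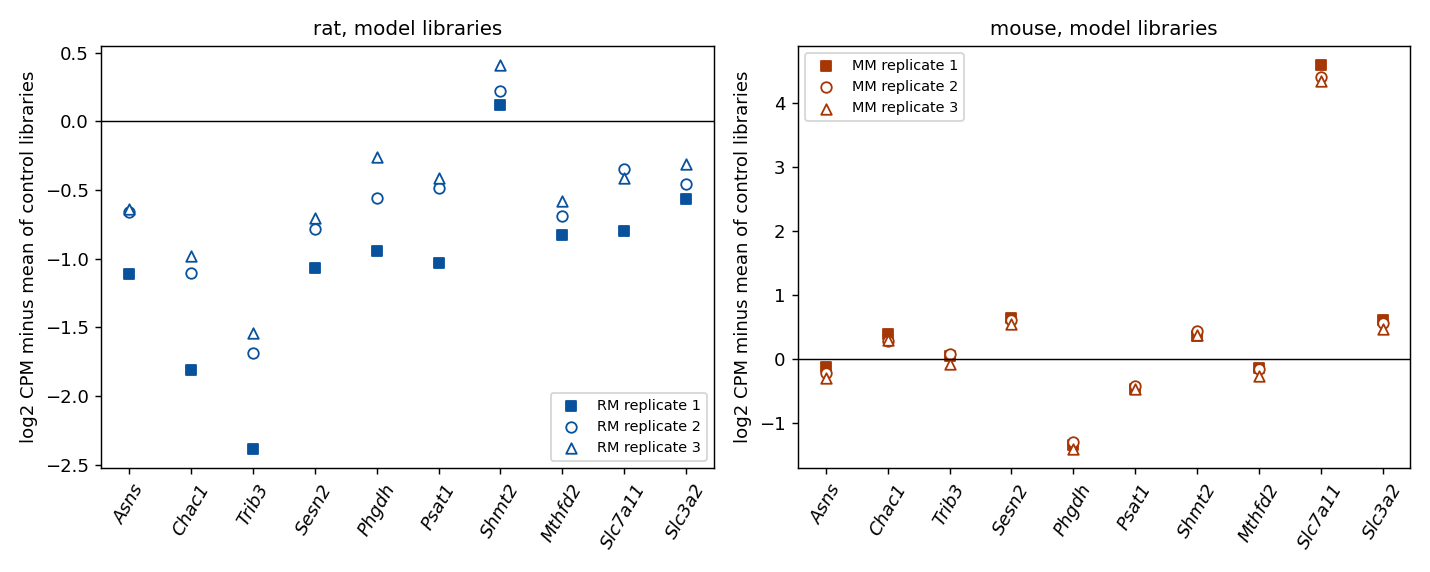
Log2 CPM of each gene in each model library minus the mean of the control libraries (y axis), for rat (left) and mouse (right, on its own scale); marker shape gives the replicate. Replicate 1 of RM (filled squares) is the lowest of the 3 rat libraries for all 10 genes, at -2.39 for Trib3.

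Levels between genes are compared per length, as FPKM, within a group. In RC the order ran from Slc3a2 (125 FPKM), Shmt2 (111) and Asns (104), neighbours whose libraries overlapped, to Slc7a11 (3.78). In RM, Shmt2 came first at 134 and Trib3 stood at 14.1 beside Sesn2 at 15, with overlapping libraries, where in RC it was above Sesn2. The MC order was led by Phgdh (106 FPKM), well above Psat1 (57.7), Slc3a2 (54.1), Asns (52.1) and Shmt2 (52.0), 4 genes whose neighbours overlapped. In MM, Phgdh was in the middle (34.2), with libraries that overlapped those of Psat1, and Slc7a11, last in MC, was above Mthfd2 (16.1).

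**Figure D4:**
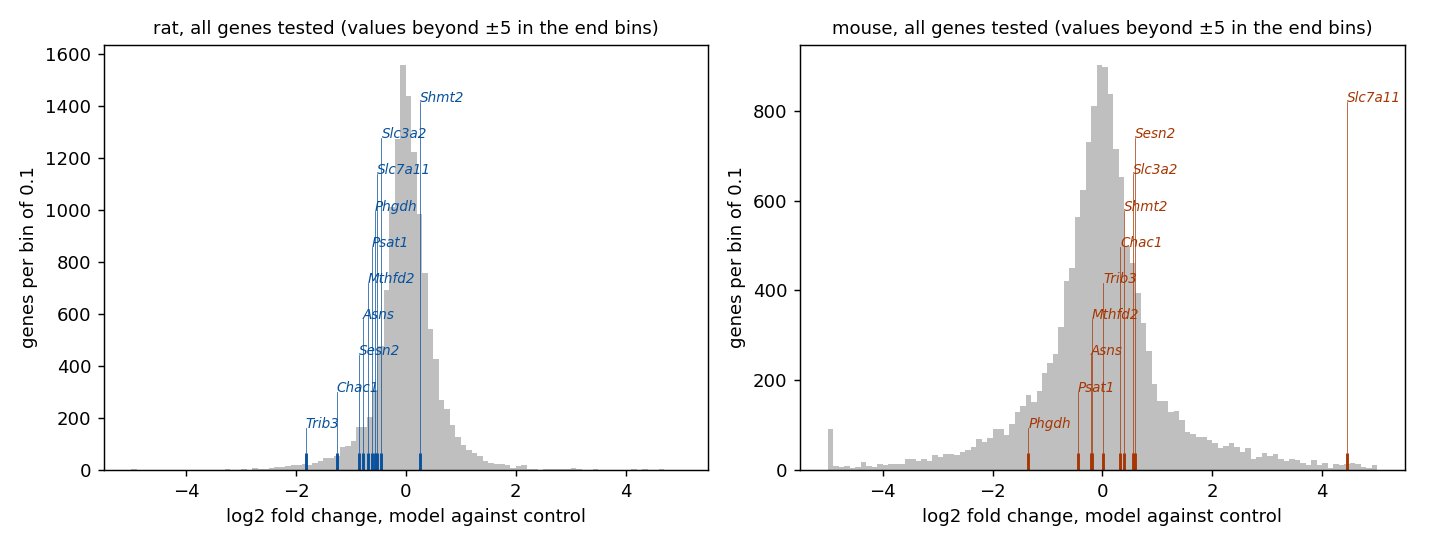
Histogram of the log2 fold change of all genes tested (grey, bins of 0.1) in rat (left) and mouse (right), with the 10 genes marked and named. In the rat 9 of the 10 sit left of the peak, and in the mouse they lie on both sides of it, with Slc7a11 at 4.45.

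Over the 12 libraries, each centred on the mean of its species, the genes with the highest Pearson correlation to Asns in log2 CPM were Aldh1l2 (r = 0.988), a mitochondrial folate enzyme, Zfp516 (0.978) and Atf5 (0.977), a transcription factor of the ISR. Of the 10 genes, Mthfd2 (0.967), Trib3 (0.957), Psat1 (0.934) and Chac1 (0.881) had the highest values, then came Sesn2 (0.654), Phgdh (0.642) and Slc3a2 (0.449), while Slc7a11 (-0.108) and Shmt2 (-0.50) were below 0. These values are descriptions over libraries that share their group, species and depth.

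Other genes of the pathway were counted in lists, and no difference between the species was tested for any list. All the lists leave out the 10 genes. The counts of each list are to be read beside the shares of all genes, 18.3% higher and 16.8% lower in the rat and 37.4% higher and 37.7% lower in the mouse. Where all libraries were used with TMM scaling and a list below had none higher or none lower, edgeR gave 0 at an unadjusted P under 0.05 too. DESeq2 also gave 0 for these, at an adjusted P under 0.05. In the rat, 3 of 16 ISR regulators tested were higher and 7 lower (median log2 fold change -0.16). Atf5 fell from 195 to 78.8 FPKM (-1.33 ± 0.10, SE) and Ddit3, which encodes CHOP, from 58.7 to 27.7 (-1.09 ± 0.10). Both were called lower in the mouse too, Atf5 at -0.39 ± 0.04 and Ddit3 at -0.18 ± 0.06. In the mouse, 11 of 18 ISR regulators were higher and 6 lower (median 0.48), or 10 and 8 (median 0.20) with library size alone, among them Stc2, which encodes the secreted glycoprotein stanniocalcin 2, at 5.96 and 41.9 FPKM (3.09 ± 0.04), and Vldlr, a lipoprotein receptor, at 15.1 and 53.5 (2.11 ± 0.03). The list named ISR regulators also holds genes that are not factors of the ISR, such as Stc2 and Vldlr, so its counts are not of regulators alone. Atf4 itself, named after its values were seen, was at 316 FPKM in RC and 215 in RM (-0.57, adjusted P = 0.000363) and at 136 in MC and 164 in MM (0.55, adjusted P = 1.50e-25). Its mouse change is after TMM, and the deposited FPKM give a smaller rise, by about the shift of the mouse median. ATF4 is controlled mainly in translation, which RNA levels do not show.

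The cytosolic aminoacyl-tRNA synthetases, which load amino acids onto tRNA, had 1 of 20 higher and 10 lower in the rat (median log2 fold change -0.23). Sars, for serine, fell by 0.71 and Aars, for alanine, by 0.53 on the log2 scale. Without replicate 1 of RM, none was higher and 7 were lower. In the mouse 5 were higher and 12 lower (median -0.17), with Eprs (-0.45) and Kars (-0.65) at the smallest P, and with library size alone 2 and 18. The core TGATGNAA, held by 3.98% of all rat promoters, was present for 7 of the 17 synthetases with a promoter in the table. It was present for 3 of 17 ISR regulators, 3 of 19 transporters, 2 of 11 genes of other amino acid synthesis and 1 of 13 ER genes of the unfolded protein response. None of 16 serine, glycine and one-carbon enzymes, 13 transsulfuration and glutathione genes, 8 NRF2 target genes, 17 genes of amino acid sensing and 10 DNA replication genes held it.

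Among 24 other amino acid transporters, the rat had 5 higher and 9 lower (median -0.05), with rises for Slc43a2, a carrier of large neutral amino acids (1.31 ± 0.10, SE), and Slc1a3, a glutamate transporter (0.88 ± 0.08). The mouse had 10 higher and 10 lower of 23 (median 0.11, but -0.16 with library size alone), near the shares of all mouse genes. Slc7a2, which carries arginine and other cationic amino acids, went from 49.7 to 361 FPKM (3.14 ± 0.03), and Slc1a5, a glutamine transporter, from 45.5 to 8.47 (-2.14 ± 0.04).

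Other enzymes of serine, glycine and one-carbon metabolism had 7 of 21 higher and 4 lower, the latter near the share of all genes, in the rat (median 0.07), where Aldh1l2 fell (-0.98 ± 0.11, SE). Without replicate 1 of RM, 4 were higher and 3 lower. In the mouse 5 were higher and 12 lower (median -0.13). Mthfd1l, which releases formate from mitochondria, rose from 18.9 to 84.0 FPKM (2.43 ± 0.04), and Aldh1l1, a cytosolic folate enzyme, fell from 4.13 to 0.350 (-3.28 ± 0.15).

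For other amino acid synthesis, 3 of 16 genes were higher and 5 lower in the rat (median -0.08), with Gpt2, an alanine transaminase, at -0.98 and Ass1, of arginine synthesis, at 1.13. In the mouse 5 were higher and 9 lower (median -0.20). Pycr1 and Aldh18a1, which make proline, fell by 2.87 and 0.75 on the log2 scale.

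Transsulfuration makes cysteine from homocysteine, and glutathione is built from cysteine, which can also come from the cystine that Slc7a11 takes up. Genes of the methionine cycle, transsulfuration and glutathione metabolism had 5 of 13 higher and 2 lower in the rat (median 0.0021), with Mat2a (0.45) and Gsr (0.50), glutathione reductase, among the rises. In the mouse 6 of 15 were higher and 5 lower (median 0.04, but -0.24 with library size alone). Gclc, which catalyses the limiting step of glutathione synthesis, rose from 10.2 to 61.0 FPKM (2.86 ± 0.05, SE) and Gsr by 1.78.

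The NRF2 target genes of this list had calls in 1 direction in each species. Gclc and Gsr, also targets of NRF2, were counted with the glutathione genes instead, where in the rat Gsr was higher and Gclc was not called. Of the 12 genes listed, 9 were in the rat table, and Fth1 was not among them. In the rat none of 9 was higher and 5 were lower (median -0.42), among them Nqo1 (-1.05 ± 0.08, SE) and Ftl1 (-0.59 ± 0.08), the ferritin light chain. In the mouse 11 of 12 were higher and none lower (median 1.39). Hmox1, heme oxygenase, rose from 78.7 to 644 FPKM (3.31 ± 0.03) and Fth1, the ferritin heavy chain, from 885 to 8451 (3.53 ± 0.03).

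Genes of amino acid sensing at mTORC1, a list that holds sensors, other genes of the pathway and Mtor and Rptor of mTORC1 itself, had none of 21 higher and 8 lower in the rat (median -0.12). Sesn3, a relative of Sesn2, fell by 1.33 and Castor1, an arginine sensor, by 0.90 on the log2 scale. In the mouse 12 of 24 were higher and 5 lower (median 0.11), but 5 higher and 13 lower (median -0.17) with library size alone. Sesn3 fell there too, by 1.45, while Rraga, a GTPase of the pathway, was at 0.84.

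The ER genes of the unfolded protein response had none of 17 higher and 5 lower in the rat (median -0.10), and 2 lower without replicate 1 of RM. The 5 were Herpud1 (-0.53), Sel1l (-0.22) and Edem1 (-0.22), which act in the degradation of misfolded ER proteins, and Ern1 (-0.49) and Atf6 (-0.21), which sense them, and no chaperone of the list was called. Sel1l, Edem1 and Atf6 were named after their values were seen. In the mouse 8 were higher and 5 lower (median 0.09), but 4 and 11 (median -0.19) with library size alone, with Ern1 at 0.96 and Pdia4 at -0.65. DNA replication genes, which cycling cells express, were higher for 11 of 12 and lower for none in the rat (median 0.90), with Rrm2 at 0.98 and Mcm6 at 0.85. In the mouse 1 was higher and 11 lower (median -1.56), with Mcm6 at -2.55 and Rrm1 at -1.74. The part of this shift in the values of the 10 genes was not tested.

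**Figure D5:**
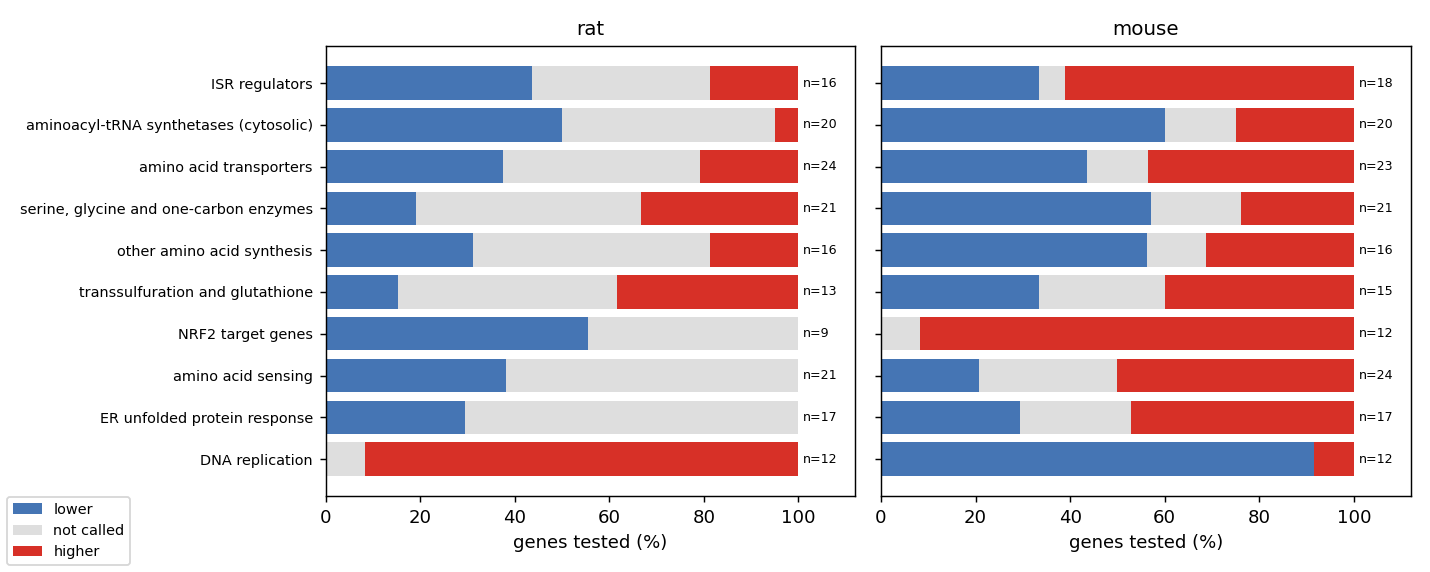
Share of tested genes (x axis, percent) that were lower (blue), not called (grey) or higher (red) after IL-1β in each of 10 pathway lists, in rat (left) and mouse (right), with the number tested beside each bar. NRF2 target genes show 5 of 9 lower in the rat and 11 of 12 higher in the mouse, and DNA replication genes show 11 of 12 higher in the rat and 11 of 12 lower in the mouse.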

How the data were processed

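RNA-seq libraries of model and control were compared within each species, 3 against 3. The authors deposited raw counts of reads per Ensembl gene, and FPKM values made from them with the total of each library. HISAT2 and HTSeq 0.11.2, with the builds GRCm38 and Rnor_6.0, are named in the submitters' processing notes; the sources used here do not say whether counting used strand. The tests used edgeR 4.0.16 in R 4.3.3 (filterByExpr, TMM, glmQLFit, glmQLFTest) over all genes, with Benjamini-Hochberg adjustment and a threshold of 0.05. The difference between species was fitted over all 12 libraries, scaled separately by species. Each gene had 1 estimate of the spread for both species, though mouse libraries varied less than rat libraries, so the P values of the difference rest on that shared estimate. Mouse coordinates come from GENCODE M21, whose merged exon lengths equalled those implied by the FPKM for the 10 genes; no rat coordinates are given on the build of the counts. The members and lists were chosen with earlier results of these data known. Every member is named, with the 2 genes of smallest P per list and species and the 3 most correlated with Asns, except 1 gene that is not reported here. DESeq2 1.42.0, limma 3.58.1 on log2(FPKM + 1) and log2(FPKM + 0.1), other scalings, no filter, a replicate block and leaving out each library were alternatives; list counts were also run on some of these after the data were seen. On simulated counts with 200 genes changed by a log2 fold of 1.5, edgeR recovered 100% in the rat and 99.5% in the mouse, with 4.31% and 4.78% of calls false. For the species difference it recovered 99.37% of 317 genes, with 3.08% false. The simulation used 1 common spread for all genes and raised as many genes as it lowered. Its changed genes were drawn only from those above a floor on the mean count, which makes recovery easier. Smaller changes, and a shift of scaling as in the mouse, were not simulated, so it gives no error rate for such calls. P values measure the spread between these samples, for which the number of animals is not given, and no libraries were duplicates. A chi-square of the counts of 2 libraries of a group is about 1 per gene under counting noise alone. It was 1.902 to 2.484 in the mouse and 6.07 to 27.8 in the rat.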

Additional observations from a re-analysis of the deposited data

Results flagged for a closer look

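The following 8 genes are given because their change after IL-1β differed between mouse and rat by the test of the difference itself (edgeR's quasi-likelihood test, Benjamini-Hochberg over 10912 genes), a test that 31.4% of all genes passed with a change more positive in the mouse and 32.3% with one more positive in the rat. The change in mouse minus that in rat was 4.97 for Slc7a11, 1.84 for Trib3, 1.58 for Chac1, 1.44 for Sesn2, 0.99 for Slc3a2, 0.58 for Asns, 0.50 for Mthfd2 and -0.79 for Phgdh on the log2 scale. With library size alone the difference did not pass for Asns (0.28, adjusted P = 0.0615) or Mthfd2 (0.20, adjusted P = 0.0905). Slc7a11, Sesn2, Slc3a2 and Chac1 were called in opposite directions, lower in the rat and higher in the mouse, though the mouse call of Chac1 was lost with library size alone (0.04, adjusted P = 0.48). The rat call of Slc7a11 was lost without replicate 1 of RM (-0.40, adjusted P = 0.0785) and with both limma fits.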

How the results depend on the processing

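For the 10 genes, 121 alternative values of the rat change, 122 of the mouse change and 163 of the species difference kept their direction and side of the threshold, and the others stand here or in the report. Shmt2 was called in the rat, making 1 gene higher instead of 0, with library size alone, DESeq2, no filter on low counts, the replicate block and without replicate 2 of RC (adjusted P 0.0318 to 0.0458). Under the study's criteria 2 rat genes were lower, and in the mouse 1 was higher and 1 lower. Leaving out each library gave 0 to 1 higher and 8 to 9 lower in the rat, 5 and 4 in the mouse, and 8 to 9 genes that differed between the species. Over all genes it gave 1735 to 3243 higher and 1568 to 3008 lower in the rat, and 5416 to 5485 and 5405 to 5453 in the mouse. The species difference then passed for 3248 to 3705 genes more positive in the mouse and 3310 to 3839 more positive in the rat. Library size alone and both limma fits gave 4 of the 10 genes higher and 5 lower in the mouse. By library size alone the mouse falls were larger for Phgdh (-1.63), Psat1 (-0.73), Asns (-0.49) and Mthfd2 (-0.47). Mouse Trib3 reversed to -0.26 with library size alone (-0.2627), with limma on log2(FPKM + 1) (-0.2569) and with a pseudocount of 0.1 (-0.2627), and ranged from -0.0372 to 0.0672 without single libraries, below 0 without replicate 2 of MC (-0.0372) or of MM (-0.0126). The species difference with library size alone was -0.1286 for Psat1 and -0.1509 for Shmt2; without single libraries that of Psat1 ranged from -0.0014, without replicate 1 of RM, to 0.2787. That of Shmt2 passed without replicate 1 of RC (0.23, adjusted P = 0.0174) or replicate 3 of RM (0.23, adjusted P = 0.0472). Mouse Chac1 was also lost with both limma fits (0.04), and so was rat Slc7a11 (-0.49, adjusted P = 0.0568, with a pseudocount of 0.1). With library size alone, 2191 instead of 3429 genes had a change more positive in the mouse and 5395 instead of 3530 one more positive in the rat, and limma on log2(FPKM + 1) called 3639 mouse genes higher instead of 5521. Of the lists, library size alone gave in the mouse 3 higher of serine, glycine and one-carbon enzymes, 3 higher of other amino acid synthesis, 8 lower of transsulfuration and glutathione and 0 higher of DNA replication, and in the rat 1 lower of transsulfuration and glutathione. By construction, library size alone leaves in the shift of the mouse median; other causes were not tested. Libraries with the same replicate number did not deviate together (correlations -0.098 to 0.085 in the rat, 0.001 to 0.015 in the mouse; 2 and 3 of 6 libraries were nearest to their own number). The replicate block moved the calls over all genes from 2429 higher and 2238 lower to 2436 and 2098 in the rat, and from 5521 and 5564 to 5503 and 5544 in the mouse, and changed no other call of the 10 genes. With 3 libraries a group, small changes such as that of rat Shmt2 stay near the threshold.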
